A study of Mus musculus with 6 samples.

Results

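Circadian clock genes were followed in the colonic mucosa of 6 male mice. They were chosen by name as Arntl, Clock, Npas2, Per1, Per2, Per3, Cry1, Nr1d1, Nr1d2 and Dbp, each represented by the array row that carried its symbol and no other. Of the 10 genes, 9 had such a row, among 22180 genes on 23521 rows. Per2 shared its row with a second symbol and is not reported. The rule set Arntl and Npas2 against Dbp, Nr1d1 and the Per genes in each mouse, and then compared genotypes.

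Mucosa labelled normal, adjacent to tumours, was measured in 4 wild-type mice (WT, genotype Mthfd1S+/+) and 2 heterozygous mice (Mthfd1S+/-) on 1 Affymetrix Mouse Gene 2.0 ST array each. Mthfd1 encodes a cytosolic folate enzyme, and Mthfd1S+/- mice are deficient in its synthetase activity. All mice were BALB/c, backcrossed for at least 10 generations, and all had received azoxymethane (AOM, a colon carcinogen, 6 mg/kg) and 2 cycles of 4 days of 3% DSS (dextran sulfate sodium, an agent that damages the epithelium of the colon). The cycles fell 1 and 4 weeks after the AOM injection, and the mice were killed at 13 weeks. The age field gives 7 months, the protocol 3 months at the injection. The animals lived under 12 h of light and 12 h of dark. The hour at which tissue was taken is not given in the sources used here, so whether it differed between mice or genotypes was not tested. No group without AOM and DSS was analysed here, and 2 heterozygous mice limit the precision of every genotype comparison.

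Each value is a log2 signal, so a difference of 1 is 2-fold. Array medians lay between 5.49 and 5.53. Rows of 10 epithelial markers of the colon had mean levels of 8.83 to 13.44, against 4.66 to 6.12 for 3 measured markers of squamous epithelium; probes of different rows differ in efficiency, so this checks the tissue only roughly. The targeted gene, Mthfd1, read 7.64, 7.63, 7.496 and 7.75 in the WT animals 1 to 4, with 7.96 and 7.63 for heterozygous ones (adjusted p = 0.890 in limma), and the labels do not say whether the allele alters the transcript. In tissue RNA, fewer cells of a type and less RNA per cell cannot be told apart.

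The circadian clock is a feedback loop present in most mammalian cells, the intestinal epithelium included. ARNTL (also called BMAL1) pairs with CLOCK or NPAS2 and activates, through E-boxes, the genes of the PER and CRY proteins, which repress the pair, and of the REV-ERB receptors NR1D1 and NR1D2 and the transcription factor DBP. REV-ERB receptors repress Arntl and Npas2 through ROR elements, and DBP activates genes through D-boxes. In mouse tissues the transcripts of Arntl and Npas2 therefore peak at about the opposite time of day from those of Nr1d1, Dbp and Per3, with Cry1 between, while Clock itself varies little.

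RefSeq promoter windows, from 250 bases before to 50 after an annotated start (build GRCm38.p6), were held for 9 of the 10 genes, in 13 windows (all but Per2). They were searched on both strands for the E-box CACGTG, the related CACGTT, the D-box (TTATGTAA or TTACGTAA) and AGGTCA, the core of a ROR element. Among all 32851 windows, 7.15% held the E-box, 4.68% CACGTT, 1.06% the D-box and 16.3% AGGTCA, and none of these motifs overlapped in the windows shown. The windows below were picked from those that held a motif, so they do not represent all the genes compared afterwards. The capitals TGACCT in Per1 are AGGTCA on the opposite strand. Each is read 5′ to 3′ on the gene's own strand, with motif matches on either strand in capitals.
Per3 (chr4:151044616-151044915, minus strand): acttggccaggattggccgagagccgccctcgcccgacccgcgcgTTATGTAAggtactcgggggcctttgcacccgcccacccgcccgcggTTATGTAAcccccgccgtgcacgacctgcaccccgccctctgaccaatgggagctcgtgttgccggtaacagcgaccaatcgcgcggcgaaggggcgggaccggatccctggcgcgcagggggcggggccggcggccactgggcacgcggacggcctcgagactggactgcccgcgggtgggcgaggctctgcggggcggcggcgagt
Arntl (chr7:113207261-113207560, plus strand): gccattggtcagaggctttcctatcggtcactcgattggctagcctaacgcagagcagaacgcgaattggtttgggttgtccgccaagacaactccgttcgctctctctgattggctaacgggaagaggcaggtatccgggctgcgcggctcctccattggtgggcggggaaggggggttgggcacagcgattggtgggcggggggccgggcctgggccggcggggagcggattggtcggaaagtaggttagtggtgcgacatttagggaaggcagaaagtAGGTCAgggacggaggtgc
Cry1 (chr10:85185005-85185304, minus strand): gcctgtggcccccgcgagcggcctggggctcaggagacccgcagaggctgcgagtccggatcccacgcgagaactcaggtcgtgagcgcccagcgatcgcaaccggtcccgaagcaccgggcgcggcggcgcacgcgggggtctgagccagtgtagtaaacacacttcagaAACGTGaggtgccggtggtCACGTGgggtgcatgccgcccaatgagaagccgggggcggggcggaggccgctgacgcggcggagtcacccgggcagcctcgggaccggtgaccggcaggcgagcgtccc
Per1 (chr11:69098699-69098998, plus strand): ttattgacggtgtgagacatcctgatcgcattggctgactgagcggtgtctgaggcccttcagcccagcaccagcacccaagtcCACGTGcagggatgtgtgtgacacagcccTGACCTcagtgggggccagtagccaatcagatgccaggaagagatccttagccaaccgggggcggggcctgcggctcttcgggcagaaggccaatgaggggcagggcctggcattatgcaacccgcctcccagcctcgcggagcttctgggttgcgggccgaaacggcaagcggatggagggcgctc
Nr1d1 (chr11:98775328-98775627, minus strand): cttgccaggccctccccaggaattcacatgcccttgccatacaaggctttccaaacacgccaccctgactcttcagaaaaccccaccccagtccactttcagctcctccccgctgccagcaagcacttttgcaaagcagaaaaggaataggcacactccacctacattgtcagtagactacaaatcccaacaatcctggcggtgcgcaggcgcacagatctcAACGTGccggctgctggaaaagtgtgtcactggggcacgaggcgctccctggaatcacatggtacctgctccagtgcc

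Per3 held the D-box in 2 places, 205 and 158 bases before the start. The Arntl window is the second of 2 and held AGGTCA just after the start. Cry1 held an E-box and CACGTT, Per1 an E-box and AGGTCA, and Nr1d1 CACGTT 28 bases before the start. Nr1d2 and 1 of the 3 windows of Clock, not shown, held AGGTCA. The windows of Npas2 and Dbp held none of these letters, nor did the remaining windows of Arntl, Clock and Per1. A match describes the letters of a window and is not evidence of binding.

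The activator arm differed widely between mice of one genotype. Arntl read 8.22, 8.93, 7.40 and 7.10 in the WT mice numbered 1 to 4, and 7.86 and 8.44 in Mthfd1S+/- mice 1 and 2. WT mouse 2 was the highest and WT mouse 4 the lowest of all 6, a 3.56-fold difference, and both heterozygous mice lay inside the WT range. Npas2, which can take the place of CLOCK, read 9.02, 9.51, 8.51 and 8.38 in WT mice and 9.01 and 9.42 in Mthfd1S+/- mice. The same WT mice were at the ends, 2.18-fold apart, and the groups overlapped. Clock, the main partner of ARNTL, read 10.12, 10.28, 10.01 and 10.09 in WT and 10.16 and 10.28 in Mthfd1S+/- mice. Its whole range was 1.21-fold, and the groups overlapped.

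Among the 4 WT mice, Dbp and the REV-ERB genes ran in the reverse order of Arntl. Between the 2 Mthfd1S+/- mice only Nr1d2 did so, while Dbp and Nr1d1 were slightly higher in mouse 2, as Arntl was. Dbp, a transcription factor of the PAR bZIP family, read 8.76, 7.08, 9.30 and 9.88 in the WT group and 8.98 and 9.01 in Mthfd1S+/- mice. WT mouse 2, the highest in Arntl, was here the lowest, and WT mouse 4 the highest, 6.96-fold apart; the heterozygous mice were 1.02-fold apart. Nr1d2, the REV-ERB-beta receptor gene, read 8.18, 7.26, 8.52 and 8.84 in WT and 8.65 and 8.28 in Mthfd1S+/- mice. Again WT mice 2 and 4 were the ends, 2.99-fold apart, and the groups overlapped. Nr1d1, the REV-ERB-alpha receptor gene, read 9.66, 8.53, 9.69 and 10.11 in WT and 10.12 and 10.22 in Mthfd1S+/- mice. WT mouse 2 was the lowest once more, but the 2 heterozygous mice stood above all WT mice, the first of them at 10.119 against 10.110 in WT mouse 4.

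Of the repressor genes, Per3 had the same order of mice as Dbp at its ends and Cry1 the opposite one at its top. Per3, the least essential of the period genes for rhythm itself, read 6.88, 6.16, 7.27 and 7.58 in WT and 7.08 and 6.63 in Mthfd1S+/- mice. Its range was 2.68-fold from WT mouse 2 to WT mouse 4, and the groups overlapped. Per1, a period gene that glucocorticoids and cAMP also induce, read 8.32, 8.62, 8.94 and 9.24 in WT and 8.72 and 8.91 in Mthfd1S+/- mice. Here WT mouse 1, not WT mouse 2, was the lowest, and the heterozygous mice lay inside the WT range. Cry1, the cryptochrome whose transcript peaks late in the cycle, read 6.96, 7.59, 7.18 and 6.83 in WT and 6.71 and 7.02 in Mthfd1S+/- mice. WT mouse 2 was the highest and Mthfd1S+/- mouse 1 the lowest, 1.84-fold apart, and the groups overlapped.

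**Figure D1:**
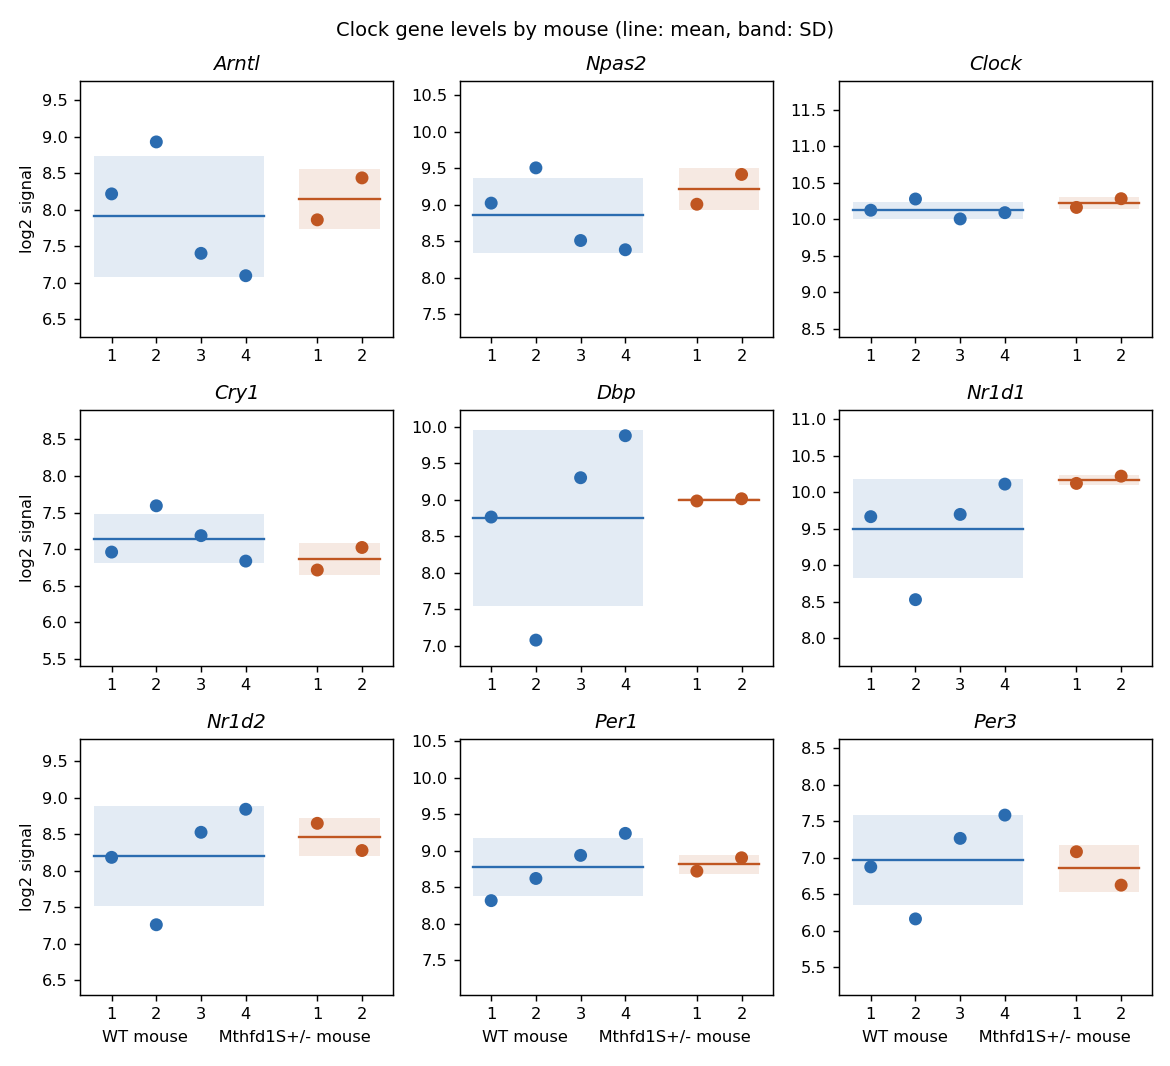
Log2 signal of the 9 measured clock genes (y axis, the same span in every panel) in each mouse (x axis, blue for 4 WT, orange for 2 Mthfd1S+/-), with the group mean as a line and its SD as a band. WT mouse 2 is highest in Arntl and Npas2 and lowest in Dbp, Nr1d1, Nr1d2 and Per3, while Clock stays within a 1.21-fold range.

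These genes were among the most variable on the array. The SD over 6 mice was 0.94 for Dbp, 0.68 for Arntl, 0.63 for Nr1d1, 0.56 for Nr1d2, 0.50 for Per3 and 0.46 for Npas2, where the median row had 0.126. Counting the genes themselves, 18 of 23521 rows had an SD at least that of Dbp and 34 at least that of Arntl. In all, 6 of 9 members were in the highest 1.00% of rows by SD (236 rows, SD from 0.42). Per1 and Cry1, at 0.31 each, were exceeded or equalled by 3.48% and 3.66% of rows, and Clock, at 0.11, by 61.4%. With the 4 WT mice alone the count was also 6, while without WT mouse 2 it was 2. Against all 41345 rows, which include those without a gene symbol, it was 1.

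Members moved with or against Arntl from mouse to mouse. Pearson's r with Arntl over 6 mice was 0.97 for Npas2 (exact permutation p = 0.00139, adjusted over 8 genes 0.0111) and -0.99 for Per3 (exact permutation p = 0.00278, adjusted 0.0111). For both, the order of the mice matched that of Arntl fully, with Spearman's rho of 1 and -1 (exact permutation p = 0.00278 each, adjusted 0.0111). The smallest p that 720 pairings can give is 0.00139. For Dbp r was -0.88 (exact permutation p = 0.00694, adjusted 0.0185) and for Nr1d2 -0.89 (0.00972, adjusted 0.0194). Their rho was -0.83 (exact permutation p = 0.0583, adjusted 0.0933) and -0.89 (0.0333, adjusted 0.0889). So 4 of 8 genes passed by r and 2 by rho. How many of all rows would pass these permutation tests was not computed, so the counts have no background share. By size alone, Npas2 and Per3 had an r of at least 0.9, as had 1.50% of all rows. With each gene centred within genotype, 0 of 8 passed by r (lowest adjusted p = 0.0556 in the exact permutation test), where only 48 pairings remain.

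The other 4 genes did not pass. Clock had r = 0.84 and rho = 0.83 with exact permutation p of 0.0403 and 0.0583 (adjusted 0.0644 and 0.0933). Per1 had r = -0.65 and rho = -0.71 (exact permutation p = 0.161 and 0.136, adjusted 0.203 and 0.181). Cry1 had 0.60 and 0.54 (exact permutation p = 0.203 and 0.297, adjusted 0.203 and 0.340). Nr1d1 had -0.61 and -0.26 (exact permutation p = 0.197 and 0.658, adjusted 0.203 and 0.658). These points share arrays and tissue, and the members were named with their opposed timing in view.

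WT mice 2 and 4 were farthest from the median of Arntl, and r over the other 4 mice was 0.95 for Npas2, -0.97 for Per3, -0.74 for Dbp, -0.72 for Nr1d2, 0.88 for Clock and -0.36 for Per1. It turned sign for Nr1d1 (0.47) and Cry1 (-0.27), so the sign over all 6 mice depended on including WT mice 2 and 4. Both heterozygous mice are among the 4 mice left, so r there also holds any difference between genotypes. Centred within genotype, r over the 6 mice was -0.86 for Nr1d1 and 0.78 for Cry1 (exact permutation within genotype, adjusted p = 0.0833 and 0.167). As a description over all rows, 0.0128% had an r with Arntl as low as that of Per3 and 0.0638% one as high as that of Npas2. The shares were 1.05% for Dbp, 0.965% for Nr1d2, 2.00% for Clock, 8.21% for Per1, 10.2% for Nr1d1 and 10.8% for Cry1.

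**Figure D2:**
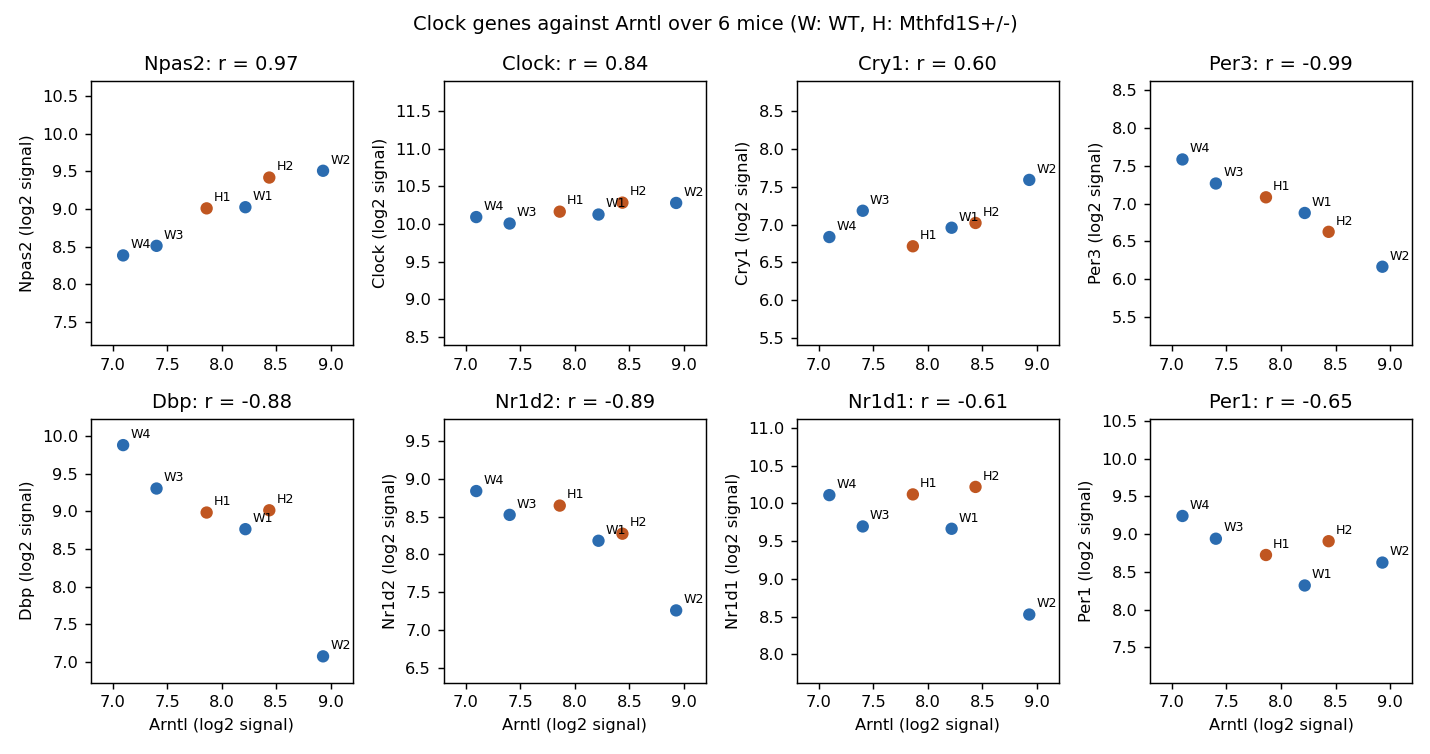
Log2 signal of 8 clock genes (y axes, equal spans) against that of Arntl (x axis) in 4 WT (W, blue) and 2 Mthfd1S+/- mice (H, orange), with Pearson's r over 6 mice. Per3 falls along a near straight line (r = -0.99), while for Nr1d1 (r = -0.61) both Mthfd1S+/- mice lie above the WT mice of like Arntl level.

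A phase index per mouse summed up the opposed arms, as the mean of Arntl and Npas2 minus the mean of Dbp, Nr1d1, Per1 and Per3, each gene first centred over the 6 mice. It was 0.30, 1.71, -0.76 and -1.37 in the WT mice in order, with -0.20 and 0.32 for Mthfd1S+/- mice 1 and 2. The WT mice thus spanned 3.08 log2 units, and both heterozygous mice lay inside that span. Mthfd1S+/- mouse 2 was near WT mouse 1, and Mthfd1S+/- mouse 1 lay between WT mice 1 and 3. In the 4 WT mice the arms had opposite signs, 0.14 and -0.17, 0.73 and -0.97, -0.53 and 0.23, and -0.74 and 0.63 in order. In Mthfd1S+/- mouse 1 they were -0.048 and 0.16, and in Mthfd1S+/- mouse 2 both were above 0, at 0.44 and 0.12.

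The group means of the index were -0.030 ± 1.35 for WT (SD, n = 4) and 0.060 ± 0.37 for Mthfd1S+/- mice (SD, n = 2), a difference of 0.089 that is far below the spread of WT mice. Mouse identifiers in the labels start with A or B, without a stated meaning. The difference was -0.51 between the single mice of each genotype with A and 0.46 among the 4 with B. Markers of other cells varied beside the index. The mean of 12 centred smooth muscle markers was -0.18, -0.27, -0.038 and 0.090 in WT order, then -0.036 and 0.43 for the Mthfd1S+/- animals, and all 12 markers had higher means in the latter, as had 8 of 8 fibroblast and 8 of 9 enteric neuron and glia markers. Among WT mice its order was the reverse of the index. The mean of 7 adipocyte markers ran from -0.41 to 1.25 in WT, highest in WT mouse 3, and from -0.63 to -0.52 in Mthfd1S+/- mice, where all 7 had lower means. The mean of the 10 epithelial markers stayed between -0.12 and 0.047 per mouse, and 8 of the 10 had lower means in Mthfd1S+/- mucosa. The part of cell makeup in the clock values was not tested beyond a fit with the smooth muscle mean, in which the index difference was 0.89.

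**Figure D3:**
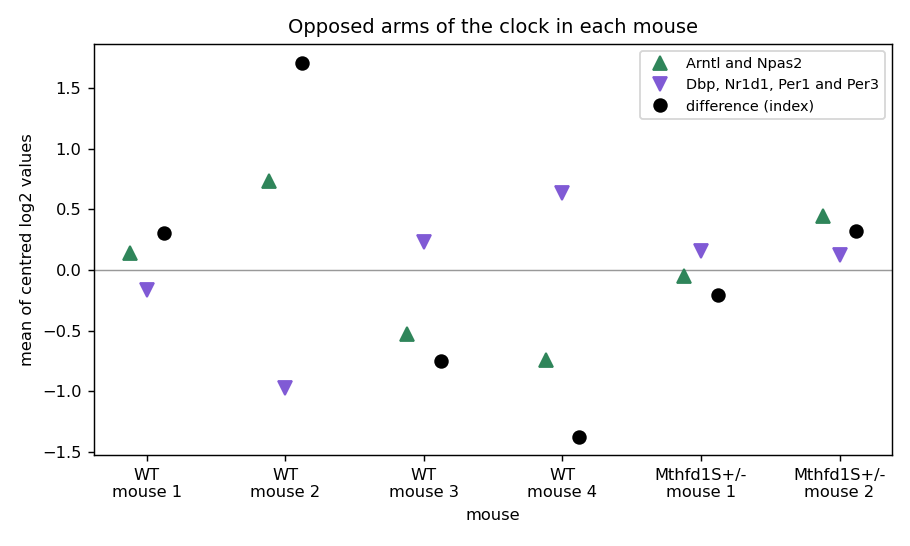
Mean of centred log2 values (y axis) in each mouse (x axis) for Arntl and Npas2 (upward triangles), for Dbp, Nr1d1, Per1 and Per3 (downward triangles) and their difference, the phase index (circles). The index runs from 1.71 in WT mouse 2 to -1.37 in WT mouse 4, and both Mthfd1S+/- mice lie in between.

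No difference between genotypes was detected for any clock gene, and with 2 heterozygous mice this does not show that there was none. In limma's moderated test over all 23521 rows, 0 of 9 members passed an adjusted p of 0.05, where 0.00% of rows did, and 0 passed an unadjusted p of 0.05, where 5.79% of rows (1363) did. Unmoderated least squares also gave 0 members at the unadjusted threshold. Means were higher in Mthfd1S+/- mucosa for 7 members and lower for 2, with a median log2 difference of 0.24, against 0.012 over all rows. The groups did not overlap for 1 member, Nr1d1, where 14.0% of rows did not overlap.

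For Nr1d1 the means were 9.50 ± 0.68 for WT (SD, n = 4) and 10.17 ± 0.070 for Mthfd1S+/- mice (SD, n = 2). The log2 difference of 0.67 (95% interval -0.16 to 1.50, limma adjusted p = 0.861) was the largest of the 9. Without WT mouse 2 it was 0.35, without WT mouse 4 it was 0.87, and once the smooth muscle mean was a covariate it was 0.18. For Dbp the means were 8.75 ± 1.21 and 8.998 ± 0.021, with a difference of 0.24 (-1.20 to 1.69, limma adjusted p = 0.972). That interval holds more than a doubling in either direction.

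Arntl had means of 7.91 ± 0.83 and 8.15 ± 0.41, with a difference of 0.24 (-0.80 to 1.27, limma adjusted p = 0.961). Npas2 had 0.36 (-0.31 to 1.02), Nr1d2 0.26 (-0.59 to 1.11), Per1 0.034 (-0.48 to 0.55), Per3 -0.12 (-0.90 to 0.66) and Cry1 -0.28 (-0.73 to 0.18), with limma adjusted p from 0.891 to 0.992. Clock, the steadiest member, had the narrowest interval, 0.098 (-0.13 to 0.33, limma adjusted p = 0.925). The signs of Arntl, Dbp, Nr1d2, Per1 and Per3 turned when single mice were left out.

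**Figure D4:**
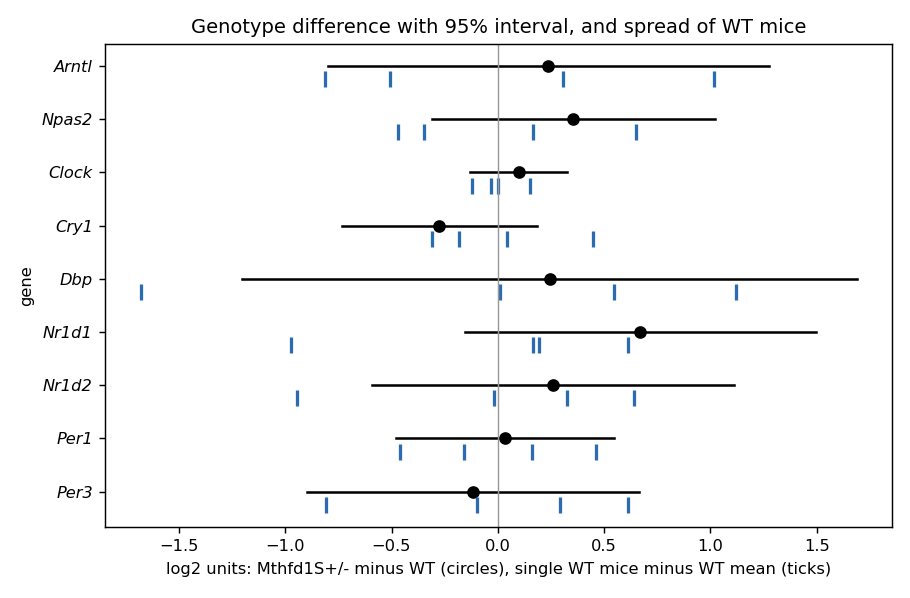
Log2 difference of Mthfd1S+/- minus WT (circles, x axis) with its 95% interval from limma (lines) for 9 clock genes (y axis), and below each the 4 WT mice relative to the WT mean (blue ticks). Every interval includes 0, and in all 9 genes at least 1 WT mouse lies farther from the WT mean than the genotypes lie apart.

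Since the mice differed so much in Arntl, genotypes were also compared at equal Arntl level, with that level as a covariate; this fit was added after the values were seen. Of the other 8 genes, 4 had an unadjusted p under 0.05, where 6.86% of rows did, and 0 had an adjusted p under 0.05. Several of the 8 had already been seen to run with or against Arntl, so the count and that share are not a like comparison. Nr1d1 had a log2 difference of 0.83 ± 0.21 (SE) and Nr1d2 of 0.45 ± 0.12, both with a limma adjusted p of 0.703. Without the covariate these SEs were 0.36 and 0.37. Npas2 had 0.21 ± 0.083 (limma adjusted p = 0.718) and Cry1 -0.35 ± 0.15 (0.728). Dbp had 0.55 ± 0.27 (limma adjusted p = 0.741), Per1 0.11 ± 0.19, Clock 0.068 ± 0.087 and Per3 0.057 ± 0.097. By size Nr1d1, Dbp and Nr1d2 were the highest at equal Arntl level and Cry1 the only one below 0, and none of the 8 passed over all rows.

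Of 18 other clock genes, 15 were measured. Between genotypes 11 had higher and 4 lower means in Mthfd1S+/- mucosa, with a median log2 difference of 0.018; 0 passed the adjusted threshold. Only Arntl2, a paralogue of Arntl, had an unadjusted p under 0.05, so 1 of 15 did, near the 5.79% of all rows. It read 5.70, 5.71, 5.63 and 5.64 in WT and 5.91 and 5.81 in Mthfd1S+/- mice (log2 difference 0.19 ± 0.081 SE, limma adjusted p = 0.837). The next by p were Rorb, a nuclear receptor that binds ROR elements, at 0.12 ± 0.11, Nfil3, a repressor at D-boxes, at 0.15 ± 0.17, and Bhlhe40, a repressor at E-boxes, at -0.15 ± 0.17.

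The 15 genes were also set against Arntl over the mice, in a comparison added after the values were seen. Tef, a relative of Dbp, read 6.02, 5.53, 6.40 and 6.40 in WT and 6.13 and 5.84 in Mthfd1S+/- mice, with r = -0.98 against Arntl (exact permutation p = 0.00139, adjusted over 15 genes 0.0208) and rho = -1 (exact permutation p = 0.00278, adjusted 0.0417). Cry2, the second cryptochrome, had r = -0.90 (exact permutation p = 0.00556, adjusted 0.0417) and rho = -0.83 (0.0583, adjusted 0.175). Without WT mice 2 and 4, r was -0.99 for Tef and -0.82 for Cry2. These were the 2 of 15 that passed by r, and Tef alone passed by rho. The share of all rows that would pass such a test was not computed. By size alone, Tef, Cry2 and Bhlhe41 (-0.92) had an r with Arntl of at least 0.9, as had 1.50% of all rows.

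Of those that did not pass, Bhlhe41, a repressor at E-boxes, had r = -0.92 and rho = -0.89 (exact permutation p = 0.0153 and 0.0333, adjusted 0.0677 and 0.125). Ciart, a repressor of ARNTL and CLOCK, had r = -0.89 and rho = -0.89 (exact permutation p = 0.0181 and 0.0333, adjusted 0.0677 and 0.125). Without WT mice 2 and 4, r was -0.86 for Bhlhe41 and -0.58 for Ciart. Nfil3 ran with Arntl, at r = 0.81 and rho = 0.77 (exact permutation p = 0.0431 and 0.103, adjusted 0.108 and 0.257), but r was 0.29 without those mice. Hlf, a relative of Dbp and Tef, had r = -0.72 and rho = -0.60 (exact permutation p = 0.0875 and 0.242, adjusted 0.188 and 0.446), and r = 0.51 without those mice.

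Of 14 clock output genes, 12 were measured. Usp2, a deubiquitinase whose transcript is rhythmic in many tissues, read 7.57, 7.31, 7.86 and 7.99 in WT and 7.61 and 7.60 in Mthfd1S+/- mice. Its r with Arntl was -0.97 (exact permutation p = 0.00417, adjusted over 12 genes 0.025) and its rho -0.94 (0.0167, adjusted 0.1). Tspan4, a tetraspanin, had r = -0.94 (exact permutation p = 0.00417, adjusted 0.025) and rho = -1 (0.00278, adjusted 0.0333). Without WT mice 2 and 4, r was -0.87 for Usp2 and -0.96 for Tspan4. These 2 of 12 passed by r and Tspan4 by rho. The same 2 had an r of at least 0.9 in size, as had 1.50% of all rows. Wee1, a kinase that restrains entry into mitosis, had r = -0.86 and rho = -0.89 (exact permutation p = 0.0333 for both, adjusted 0.133), and r = -0.60 without those mice.

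Between genotypes 0 output genes passed the adjusted threshold, 5 had higher and 7 lower means in Mthfd1S+/- mucosa, and the median log2 difference was -0.035. At an unadjusted p under 0.05, where 5.79% of all rows were, stood 2 of 12: Alas1, the first enzyme of heme synthesis, at -0.34 ± 0.11 (SE), and Abcb1a, a drug efflux pump, at 0.35 ± 0.15 (limma adjusted p = 0.837 for both). Alas1 read 10.30, 10.30, 10.23 and 10.04 in WT and 9.80 and 9.95 in Mthfd1S+/- mice, so the groups did not overlap. Next by p were Tsc22d3, a glucocorticoid-induced leucine zipper gene, at 0.22 ± 0.10, and Nampt, the rate-limiting enzyme of NAD salvage, at -0.19 ± 0.13.

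**Figure D5:**
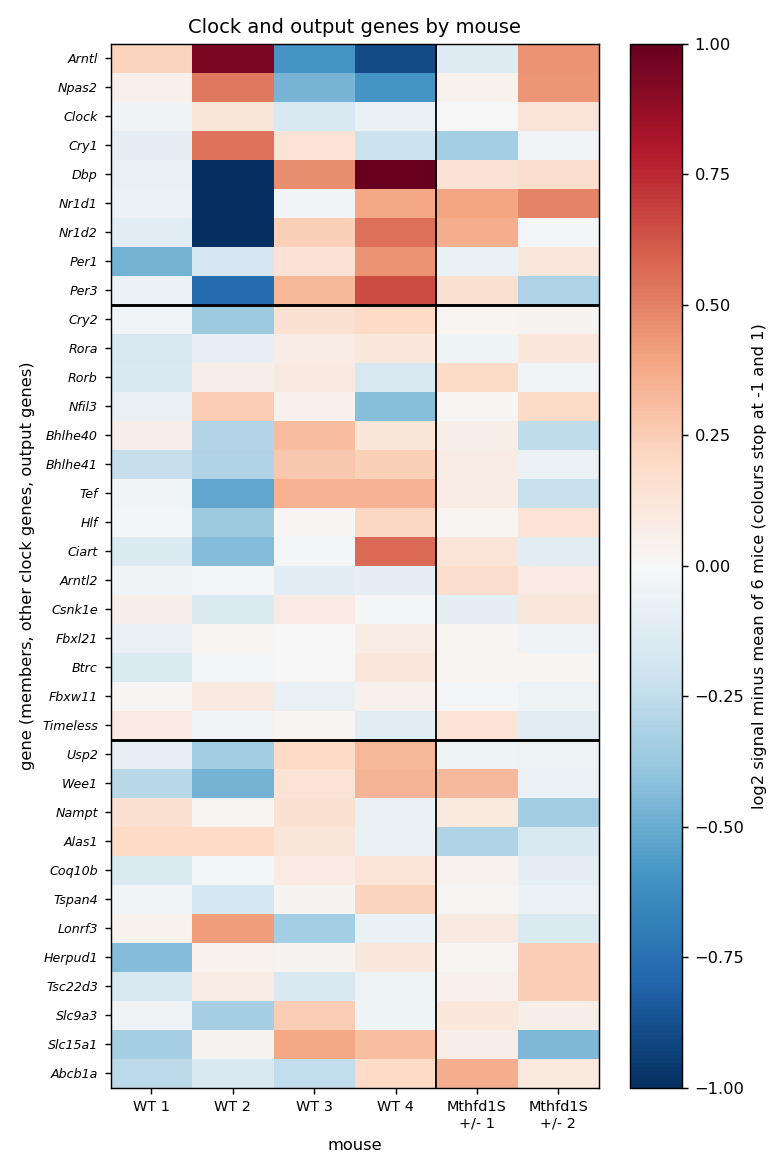
Log2 signal minus the mean of 6 mice (colour, saturated at -1 and 1) for 9 clock genes, 15 other clock genes and 12 output genes (rows, y axis) in each mouse (columns, x axis). Dbp, Nr1d1, Nr1d2, Per3, Cry2, Tef and Usp2 share low values in WT mouse 2 and high or middle values in WT mice 3 and 4, opposite to Arntl and Npas2.

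Signals that also act on Per1 were read beside it. At an unadjusted p under 0.05 stood 5.79% of all rows (790 higher and 573 lower in Mthfd1S+/- mucosa). Of 11 glucocorticoid-induced genes, 9 had higher means in Mthfd1S+/- mucosa (median log2 difference 0.22), with 4 higher and 1 lower at an unadjusted p under 0.05 and 0 past the adjusted threshold. The higher genes were Zbtb16 (0.71 ± 0.13 SE), Pdk4 (0.61 ± 0.14), Klf9 (0.46 ± 0.15) and Nfkbia (0.25 ± 0.093), and the lower was Errfi1 (-0.46 ± 0.14), with a limma adjusted p of 0.837 each. Per1, at 0.034, was not among them. Zbtb16, Pdk4 and Klf9 were highest in Mthfd1S+/- mouse 2, the mouse with the highest smooth muscle mean (0.43), and with that mean as a covariate their differences were 0.55, 0.52 and 0.24. In Mthfd1S+/- mouse 1, with a smooth muscle mean of -0.036, these genes read 7.08, 6.56 and 9.12. Their highest WT values were 6.67, 6.35 and 8.98. When Mthfd1S+/- mouse 2 was left out, the differences were 0.62, 0.37 and 0.40. Of 12 immediate early genes, 8 had lower means in Mthfd1S+/- mucosa (median -0.093), with Fos (-0.63 ± 0.20 SE), Fosb (-0.52 ± 0.15) and Atf3 (-0.71 ± 0.21) at an unadjusted p under 0.05 and 0 past the adjusted threshold (limma adjusted p = 0.837 each). The fourth by p was Nr4a1, at -0.20 ± 0.10. Fos, Fosb and Atf3 were all lowest in Mthfd1S+/- mouse 2. Without it their differences were -0.53, -0.34 and -0.34, none at an unadjusted p under 0.05, and with the smooth muscle covariate they were -0.36, -0.35 and -0.27.

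Among rows brighter than the median with an SD at least that of Arntl (27 rows), those most like Arntl over the 6 mice were Reg3g (r = 0.92), Hspa1a (0.91), Hspa1b (0.91), Reg3b (0.89) and Kcnma1 (0.72). Reg3g and Reg3b encode antimicrobial lectins of the gut epithelium, Hspa1a and Hspa1b the near-identical inducible HSP70 chaperones, whose probes may read both, and Kcnma1 a potassium channel. Hspa1a read 8.30, 10.97, 7.66 and 7.75 in WT and 8.58 and 9.41 in Mthfd1S+/- mice. Reg3g read 6.85, 7.18, 4.96 and 5.10 in WT and 5.86 and 6.11 in Mthfd1S+/- mice. WT mouse 2 was the highest in both, as in Arntl. The row most opposed to Arntl under this rule was Dbp itself (-0.88), ahead of 4 immunoglobulin genes that began with Ighm at -0.41. These are descriptions over 6 mice: of all rows tested, 1.50% (353) had an r with Arntl of at least 0.9 in size.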

How the data were processed

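Deposited values are log2 signals for each array and transcript cluster. Expression Console made them, per the submitters' processing notes, and no version, algorithm or build is given in the sources used here. The scale was taken to be log2 from the range of the table, 1.06 to 13.51, and no source states it. Of 41345 rows, 23521 had exactly 1 platform gene symbol and were tested; 1814 with several symbols and 16010 with none were left out. A gene was represented by its row of highest mean, and no member had several.

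Differences between genotypes were tested two-sided by lmFit and eBayes of limma 3.58.1 under R 4.3.3 (no covariate, 4 residual and 4.35 prior degrees of freedom), with Benjamini-Hochberg adjustment over all tested rows; the median SE of a log2 difference was 0.106. The limma step without a covariate and Pearson's r were tried on simulated data with planted changes. The permutation tests, rho, the phase index and the covariate fits were not. Correlations over mice used all 720 pairings in exact two-sided permutation tests, or 48 where centred within genotype, adjusted within each list. Ranks for rho came from scipy 1.17.1. Per2 had no row of its own and was left out of the phase index and of the correlations, which leaves 8 partners of Arntl.

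The members and lists were chosen with earlier results of these data known. Counts by SD, the correlations of lists other than the members and the Arntl covariate were added after seeing the values. Named genes are all members, in each list those at an unadjusted p under 0.05 and up to 4 with the smallest p, the 5 rows most like and most unlike Arntl, and genes singled out, after their values were seen, for their correlation with Arntl. Labels call the arrays biological replicates, 1 per mouse; signal over background was not used, so dim values cannot be told from background.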

Additional observations from a re-analysis of the deposited data

Results flagged for a closer look

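Of 59 sets of 4 WT values checked (members, list genes and the phase index), 1 held a mouse far from the others. Herpud1, a gene of the endoplasmic reticulum stress response on the list of clock outputs, read 9.40 in WT mouse 1, while the other WT mice lay from 9.86 to 9.94. Chance gives such a value in about 1 of 20 sets. No clock gene itself had one.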

How the results depend on the processing

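Over 134 recomputed differences of the 9 members, 118 kept their sign, 16 turned it, and the lowest adjusted p was 0.157 in limma, so none was called. Part of the 118 was fixed in advance. Fits with all rows, with rows above the median level or without moderation change only the p, so no sign could turn there. Without single mice the ranges were -0.049 to 0.58 for Arntl, -0.32 to 0.62 for Dbp, -0.054 to 0.47 for Nr1d2, -0.12 to 0.19 for Per1, -0.39 to 0.11 for Per3, 0.15 to 0.57 for Npas2, 0.35 to 0.87 for Nr1d1, -0.43 to -0.12 for Cry1 and 0.038 to 0.16 for Clock; a lone heterozygous mouse was then taken to vary like the WT mice. With the mean of smooth muscle markers as a covariate, Dbp had -0.62, Nr1d2 -0.086 and Per1 -0.29, and with the Arntl level as a covariate Per3 had 0.057. The cause of these turns was not tested. With the replicate number as a block, which leaves only the mice numbered 1 and 2 to set the difference, Arntl had -0.42, Npas2 -0.053, Per3 0.34, Dbp 1.08, Nr1d1 1.07, Nr1d2 0.74, Per1 0.34, Cry1 -0.41 and Clock 0.021, and 7 of 9 members had an unadjusted p under 0.05, where 9.91% of rows did and 0 members passed the adjusted threshold. The numbers are no known pairing. Deviations of mice numbered 1 correlated at 0.12 over rows and of those numbered 2 at -0.044. With only 2 heterozygous mice, each WT mouse gives values of equal size and opposite sign with them. These correlations therefore cannot decide whether mice were paired. The count of members at an unadjusted p under 0.05 was 0 to 1 without single mice (Npas2 without WT mouse 2, Nr1d1 without WT mouse 4) and 4 with the Arntl level as a covariate. Members in the most variable 1% were 2 to 6 without single mice and 1 over all rows. Centred within genotype, r with Arntl was 0.998 for Npas2, -0.99 for Per3, -0.97 for Nr1d2, -0.93 for Dbp, 0.87 for Clock, -0.86 for Nr1d1, 0.78 for Cry1 and -0.68 for Per1, but 0 genes passed the adjusted threshold (adjusted p from 0.0556), as only 48 pairings remain and the smallest p is 0.0208. Over 12 settings the index difference ran from -0.36 without WT mouse 4 to 0.89 with the smooth muscle covariate. On the log2 scale each move was smaller than the WT spread. Subtracting array medians cannot move the difference, and dividing each gene by its SD gave 0.27 on another scale. The sign turned without WT mouse 3 (-0.15), WT mouse 4 or Mthfd1S+/- mouse 2 (-0.17). No member had another row to try. No depth is known for arrays: the number of mice limits the precision.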
